A study of Mus musculus with 6 samples.

Results

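A set of 9 genes of epithelial cell-cell junctions were followed in hair bulge (HB) keratinocytes with and without integrin α3. They were taken from the gene count table by symbol. All 9 were among its 22295 genes and passed the filter for testing. *Cdh1*, *Cdh3*, *Ctnna1* and *Ctnnd1* belong to adherens junctions, and *Tjp1*, *Ocln*, *Cldn1*, *Cldn4* and *F11r* to tight junctions. RNA was sequenced from GFP-positive keratinocytes sorted from the epidermis of 3 K19 *Itga3* WT mice, which carry K19(Cre-ERT) and mTmG, and 3 K19 *Itga3* KO mice, which carry Itga3 fl/fl in addition, all bred on FVB. The Cre is driven by the K19 promoter of HB cells and switches recombined cells and their progeny to GFP, so the WT mice share the Cre, the reporter and the tamoxifen with the KO mice. By the sample descriptions, tamoxifen was injected at 6 weeks of age on 4 days (10 mg/ml). The methods of the study give a lower concentration, a start shortly before 6 weeks, and topical tamoxifen in addition. At 7 weeks 1 dose of 30 μg DMBA, a mutagen, followed. TPA, a phorbol ester that drives keratinocyte growth, was then given at 12.34 μg per dose, 2 doses a week for 2 weeks. The study describes recombination with this Cre line as incomplete across HBs, but reports that α3β1 was efficiently deleted from GFP-positive cells after tamoxifen. It places the GFP-positive cells at this stage mainly in growing hair follicles, with some in the upper follicle and the interfollicular epidermis.

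Adherens junctions join neighbouring keratinocytes through cadherins, whose cytoplasmic tails bind p120-catenin and β-catenin, and α-catenin links this complex to actin. Tight junctions lie above them and seal the space between cells with strands of claudins, occludin and junctional adhesion molecules that are held by zonula occludens (ZO) scaffold proteins. In skin the tight junction barrier forms in the granular layer, while cadherins are present in all living layers and P-cadherin is kept to basal cells and hair follicles.

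Libraries held 20578309 to 23670507 counts on genes, and TMM normalization factors lay between 0.981 and 1.03. Column names hold the genotype, a mouse and an index but not the sample number of the labels, and letters a to c were given within each genotype by column position. A single library was made per mouse. Values are CPM, the counts scaled to a common library size with TMM factors, and SDs are over 3 libraries. The targeted gene *Itga3* stood at 298 ± 63.9 CPM in WT libraries, compared with 129 ± 5.22 CPM in KO libraries (SD, n = 3 each) (log2 fold change −1.20, adjusted p = 0.00283). Keratinocyte markers were abundant, with *Krt5* at a mean of 19561 CPM, whereas the summed immune cell markers stayed between 8.15 and 14.3 CPM and the summed melanocyte markers between 6.93 and 14.4 CPM, with *Cd74* and *Dct* the most abundant of each. In these bulk libraries, fewer cells of a type and less RNA per cell cannot be told apart.

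Promoters are shown for *Cldn4*, the gene with the largest fitted fold change among the 9, for *Cldn1*, the most abundant claudin, and for *F11r*, the other tight junction member with a match to a motif of the transcription factor AP-1. Each run covers the 250 bases before the start in RefSeq (build GRCm38.p6), 5′ to 3′ on the strand of the gene, from chr5:134946935-134947184 (minus strand), chr16:26371840-26372089 (minus strand) and chr1:171437311-171437560 (plus strand). Capitals mark matches to the AP-1 site TGAGTCA, known as the TPA response element and read as TGACTCA on the opposite strand, or to the E-box CAGGTG, read as CACCTG on the opposite strand, which Snail and ZEB repressors bind.
Cldn4: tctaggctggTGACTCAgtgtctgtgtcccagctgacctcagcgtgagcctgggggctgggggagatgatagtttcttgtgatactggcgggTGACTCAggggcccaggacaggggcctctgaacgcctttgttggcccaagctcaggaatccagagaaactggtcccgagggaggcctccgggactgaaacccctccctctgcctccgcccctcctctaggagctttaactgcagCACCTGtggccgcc
Cldn1: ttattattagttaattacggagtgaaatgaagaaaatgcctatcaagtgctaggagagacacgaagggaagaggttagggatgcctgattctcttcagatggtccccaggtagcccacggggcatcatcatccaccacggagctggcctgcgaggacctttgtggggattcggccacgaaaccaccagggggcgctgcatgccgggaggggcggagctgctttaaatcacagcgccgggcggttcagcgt
F11r: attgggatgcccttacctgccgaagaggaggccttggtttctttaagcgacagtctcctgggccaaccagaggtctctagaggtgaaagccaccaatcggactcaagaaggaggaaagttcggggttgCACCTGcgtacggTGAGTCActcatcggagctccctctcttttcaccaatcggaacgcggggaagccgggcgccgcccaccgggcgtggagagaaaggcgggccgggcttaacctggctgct

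The *Cldn4* window held TGACTCA at 2 positions, with first bases 240 and 158 bases before the start, and CACCTG at 14 bases before the start. The *F11r* window held TGAGTCA at 109 and CACCTG at 122 bases before the start, and the *Cldn1* window held none of these letters. No match overlapped another. Of 32851 promoter windows of this length, 4.46% held the AP-1 letters, 17.2% the E-box letters and 0.116% the grainyhead motif AACCGGTT. RefSeq windows were found for 6 of the 9 genes (*Cldn4*, *Cldn1*, *Ocln*, *F11r*, *Tjp1* and *Ctnnd1*). Beyond the matches named, the E-box letters were present in 1 of the 2 windows of *Ocln*, with CAGGTG at 213 and at 68 bases before the start. The grainyhead motif was found in none of the 8 windows of these genes, and such matches describe letters, not binding.

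Compared per kilobase (kb) of exon, the junction genes spanned a wide range of RNA levels, led by *Cdh1*. *Cdh1* (ENSMUSG00000000303, chromosome 8, 106603351 to 106670246), which encodes E-cadherin, led with 168 ± 8.01 CPM per kb (SD over 6 libraries), at percentile 99.0 of tested genes. *Ctnna1* (ENSMUSG00000037815, chromosome 18, 35118888 to 35254773), encoding αE-catenin, followed with 85.3 ± 3.80 CPM per kb, a value that depends on the length used: with its longest transcript it was 147 CPM per kb. *F11r* (ENSMUSG00000038235, chromosome 1, 171437535 to 171464603), encoding the adhesion molecule JAM-A, had 84.7 ± 9.02 CPM per kb, and its range overlapped that of *Ctnna1* by exon length, whereas with the longest transcript its mean was 89.6 CPM per kb. *Cdh3* (ENSMUSG00000061048, chromosome 8, 106510913 to 106556908), encoding P-cadherin and lying beside *Cdh1*, had 64.8 ± 4.35 CPM per kb.

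*Cldn1* (ENSMUSG00000022512, chromosome 16, 26356642 to 26371841), the claudin that mice need for their water barrier, had 50.5 ± 9.80 CPM per kb, a range that overlapped that of *Cdh3*. *Cldn4* (ENSMUSG00000047501, chromosome 5, 134945126 to 134946934), a claudin of the upper epidermal layers, had 16.2 ± 7.01 CPM per kb, and *Tjp1* (ENSMUSG00000030516, chromosome 7, 65296165 to 65371239), encoding the scaffold protein ZO-1, had 14.4 ± 1.06 CPM per kb. The ranges of these 2 genes overlapped, with *Cldn4* above *Tjp1* in all 3 KO libraries and in WT b only among the WT libraries. *Ctnnd1* (ENSMUSG00000034101, chromosome 2, 84600071 to 84650765), encoding p120-catenin, had 9.29 ± 1.00 CPM per kb. The lowest was *Ocln* (ENSMUSG00000021638, chromosome 13, 100496507 to 100552718), encoding occludin, with 2.99 ± 0.59 CPM per kb on 202 to 365 counts per library. Apart from the 3 overlapping pairs (*Ctnna1* and *F11r*, *Cdh3* and *Cldn1*, *Cldn4* and *Tjp1*), each gene exceeded the next one in the order in all 6 libraries without overlap of the ranges. The level of *Ctnnd1* may be uncertain, because GENCODE M21 places a further gene, Gm28635, across it on the same strand. Reads that fit both genes can be lost in counting. That of *Tjp1* may be uncertain in the same way, since Gm44794 and Gm44792 lie across it on its strand. The study counted reads on another set of gene models, and whether it held these overlapping genes was not checked.

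**Figure D1:**
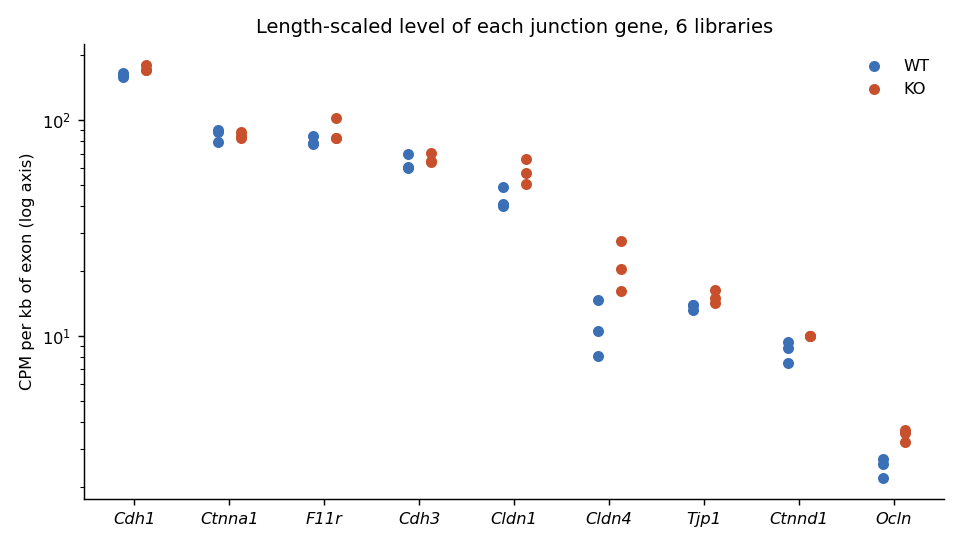
Level of each junction gene in CPM per kb of exon (log axis), with 1 point per library, WT in blue and KO in orange. *Cdh1* lies highest at 159 to 181 CPM per kb and *Ocln* lowest at 2.20 to 3.67 CPM per kb, and the points of *Cldn4* spread most.

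Within a genotype the level of *Cdh1* varied least among the WT mice and that of *Cldn4* most. The coefficient of variation for *Cdh1* was 2.29% in WT and 3.20% in KO, and for *Cldn4* it was 30.0% in WT and 27.1% in KO. *Ctnnd1* varied by 11.3% in WT but by 0.453% in KO libraries. The counts per library ranged from 15846 to 18371 for *Cdh1* and from 321 to 1177 for *Cldn4* over both genotypes.

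The comparison of KO with WT asks which RNAs depend on α3β1 when tumorigenesis starts. None of the 9 genes passed an adjusted p of 0.05 in edgeR's quasi-likelihood test across 21681 genes (0 of 9, with 4 at an unadjusted p below 0.05, whereas DESeq2 called 1 and limma-voom 0). Of all genes tested, edgeR called 0.673% (0.461% higher in KO), DESeq2 2.52% and limma-voom 0.111%. The fitted log2 fold change was above 0 in 8 of the 9 genes, with a median of 0.09 over the 4 adherens junction genes and 0.42 over the 5 tight junction genes, beside 0.00 over all genes tested. The 4 genes with an unadjusted p below 0.05, all higher in KO, were *Cldn4*, *Cldn1*, *Ocln* and *Ctnnd1*, and 5.58% of all genes tested, and 8.05% of those kept by edgeR's filterByExpr filter on low counts, had such a p in that direction.

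In 6 of the 9 genes (*Cdh1*, *Ctnnd1*, *Tjp1*, *Ocln*, *Cldn1* and *Cldn4*) each KO library lay above each WT library. This was so for 8.03% of all genes tested, and for 10.7% of the 13811 genes kept by filterByExpr, which kept all 9. In no gene of the 9 did each KO library lie below each WT library. With scaling by library size only, the count was 5 of 9 (8.21% of all genes tested), since the groups of *Cldn1* then overlapped. The exact two-sided permutation test gave p = 0.1 for each of the 6, the smallest p that 3 against 3 allow.

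Among the tight junction genes *Cldn4* differed most. Its level was 14.7, 26.7 and 19.2 CPM in the WT libraries (a to c), against 50.03, 37.1 and 29.2 CPM in the KO libraries (a to c). KO a stood highest and WT a lowest, and the gap between the groups, from WT b to KO c, was small beside the spread within them. The mean was 20.2 ± 6.07 CPM for WT against 38.8 ± 10.5 CPM for KO (SD, n = 3 each), a fitted fold of 1.92 (95% interval 1.37 to 2.68) and a log2 fold change of 0.94 (standard error 0.22, unadjusted p = 0.00125, adjusted p = 0.0866). DESeq2 gave an adjusted p of 0.00707, and edgeR without WT b one of 0.0446 at a log2 fold change of 1.19. In edgeR without KO a, the log2 fold change was 0.71 (adjusted p = 0.556), so the call rests on the tool and on single libraries, within a range of 0.00707 to 0.556 over all alternatives.

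*Cldn1* stood at 194, 237 and 197 CPM across WT libraries and at 318, 245 and 276 CPM across KO libraries, given from a to c as in all that follows. WT b, which was also the WT library with most *Cldn4*, came close to KO b. The fitted log2 difference was 0.42 (standard error 0.12, adjusted p = 0.157) and its 95% interval ran from 0.16 to 0.68. *Ocln* had 9.27, 11.4 and 10.8 CPM in WT and 15.5, 13.6 and 15.1 CPM in KO libraries, in the same order. Here the lowest KO value lay clearly above the highest WT value, at a log2 difference of 0.49 (standard error 0.14, adjusted p = 0.160).

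The remaining tight junction genes differed less. *Tjp1* had 109, 103 and 109 CPM in WT and 127, 117 and 111 CPM in KO libraries, so that the groups were separate by a narrow margin (a log2 difference of 0.15 with standard error 0.09 and adjusted p = 0.577). *F11r* had 209, 226 and 205 CPM in WT and 272, 220 and 221 CPM in KO libraries. Only KO a exceeded the WT range, the groups overlapped, and the log2 fold change of 0.15 (adjusted p = 0.638) came down to 0.05 without KO a.

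Among the adherens junction genes the cadherins were nearly level between the genotypes. *Cdh1* had 734, 726 and 758 CPM in WT and 781, 782 and 826 CPM in KO libraries. Every KO value was higher, but the fitted fold was 1.08, with an interval from 0.940 to 1.23 (adjusted p = 0.681). *Cdh3* had 305, 263 and 266 CPM in WT and 283, 308 and 280 CPM in KO libraries, with overlapping groups and an interval of the fold from 0.904 to 1.21 (adjusted p = 0.813).

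Of the catenin genes, *Ctnna1* had 576, 510 and 563 CPM in WT and 533, 563 and 541 CPM in KO libraries, and its fold of 0.993 had an interval from 0.863 to 1.14 (adjusted p = 0.996). All 3 KO values lay inside the WT range. *Ctnnd1* had 68.9, 55.0 and 64.2 CPM in WT and 73.4, 72.9 and 73.5 CPM in KO libraries, a log2 difference of 0.22 (standard error 0.10, adjusted p = 0.411). Each KO value was above the WT range, and the interval of its fold ran from 1.006 to 1.36. Changes larger than 1.23-fold in *Cdh1*, 1.21-fold in *Cdh3* and 1.14-fold in *Ctnna1* lay outside these intervals on the higher side.

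**Figure D2:**
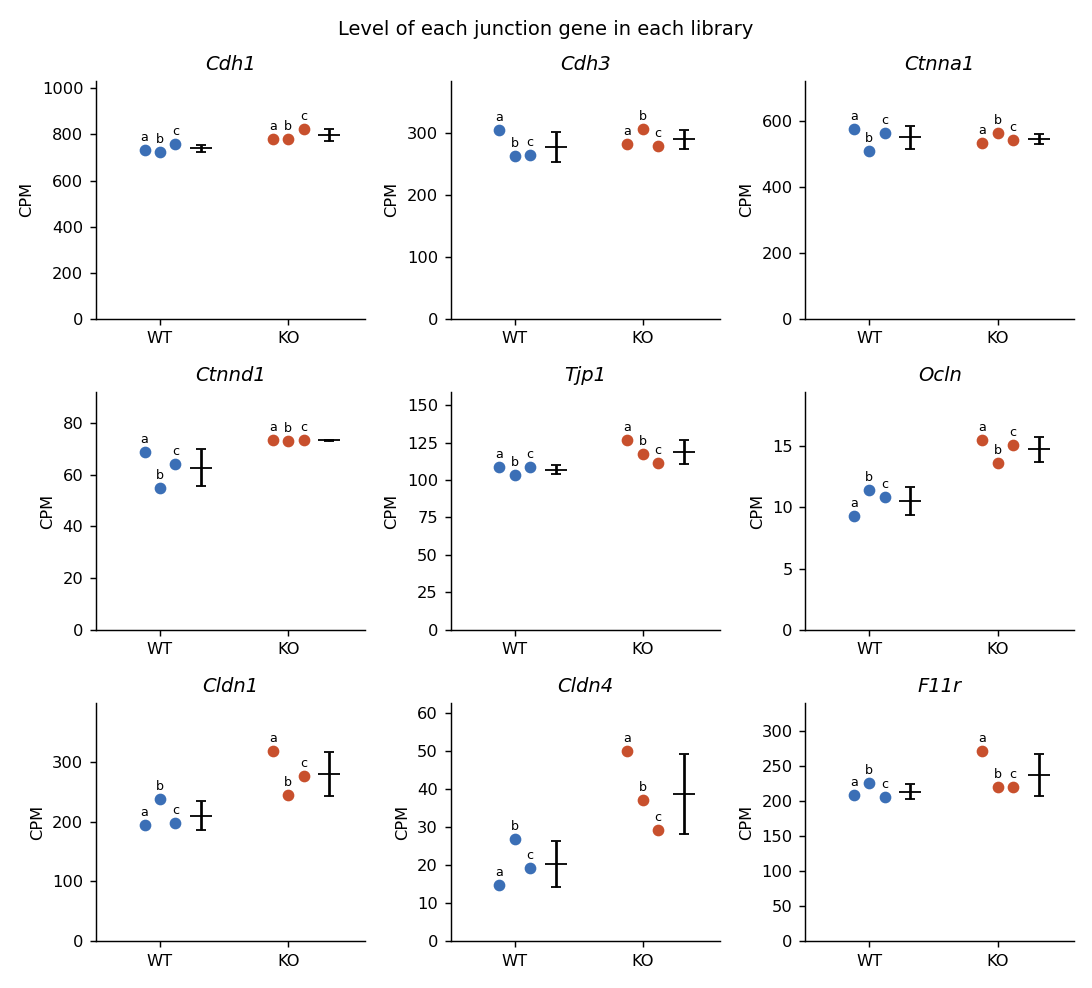
CPM of the 9 junction genes in each library (a, b, c), with the mean ± SD of 3 libraries beside the points and each axis starting at 0. KO and WT points do not overlap in 6 genes, with the widest relative difference in *Cldn4*, while *Ctnna1*, *Cdh3* and *F11r* overlap.

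**Figure D3:**
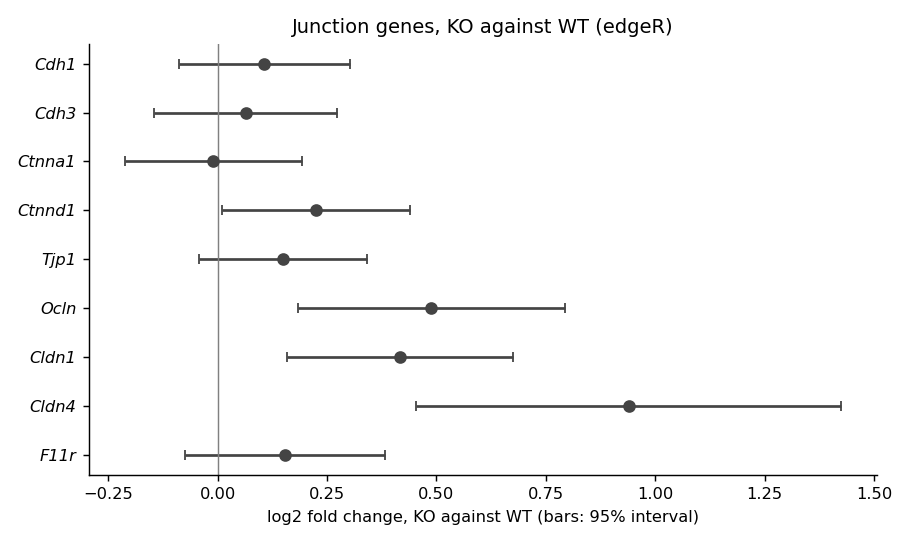
Log2 fold change of KO against WT for the 9 genes from edgeR, with 95% intervals for each gene alone. The intervals of *Ocln*, *Cldn1*, *Cldn4* and *Ctnnd1* lie above 0, and none of the 9 genes passed after adjustment over all genes tested.

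Markers of differentiation and of other cells were read beside these values. The summed suprabasal markers, with *Dmkn* the most abundant, ranged from 2424 to 2871 CPM in WT and from 2838 to 2911 CPM in KO libraries. Of the 7, 1 was separate between the groups and higher in KO, as were 8.03% of all genes tested. *Lor* and *Flg* went the other way, at log2 fold changes of −0.69 (adjusted p = 0.734) and −0.26 (adjusted p = 0.772). The HB marker *Cd34*, which encodes a surface protein of bulge cells, fell from 853 ± 40.7 to 516 ± 113 CPM (SD, n = 3; adjusted p = 0.0462). It was the only 1 of the 8 keratinocyte markers to pass in edgeR (0.673% of all genes tested), close to the threshold of 0.05. Among other bulge markers of that list, *Lgr5* (log2 fold change −0.47, adjusted p = 0.283), *Krt15* (−0.21, adjusted p = 0.681) and *Lhx2* (−0.11, adjusted p = 0.681) were lower without passing. *Sox9* went the other way (0.16, adjusted p = 0.633). The summed fibroblast markers, led by the collagen gene *Col1a1*, ranged from 116 to 178 CPM in WT and from 48.1 to 80.3 CPM in KO libraries, with *Col1a2* and *Pdgfra* separate and lower. The other 3 fibroblast markers went the other way: *Dcn* had 1.03 ± 0.59 CPM in WT and 3.70 ± 1.98 CPM in KO (SD, n = 3; adjusted p = 0.113), *Col3a1* had 0 counts in the WT libraries and a mean of 0.51 CPM in KO, and *Lum*, separate and higher, had no more than 3 counts. The summed endothelial markers, led by *Tek*, ranged from 5.69 to 8.67 CPM in WT and from 3.83 to 5.11 CPM in KO libraries, with *Tek* separate and lower and *Pecam1* separate and higher, at 1.14 ± 0.24 CPM in WT and 1.78 ± 0.12 CPM in KO (SD, n = 3; adjusted p = 0.411), while the endothelial cadherin gene *Cdh5* did not exceed 3 counts in any library. Their part in the values of the junction genes was not tested.

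Ratios of 2 genes within a library do not depend on library scaling. A set of 5 ratios of length-scaled levels were compared. The level of *Cdh3* was 0.393 ± 0.037 of that of *Cdh1* in WT and 0.381 ± 0.028 in KO libraries (SD, n = 3), with overlapping groups. The level of *Tjp1* was 5.55 ± 0.73 times that of *Ocln* in WT and 4.36 ± 0.35 times in KO libraries, and the groups did not overlap. *Ctnnd1* reached 0.038 ± 0.0033 of the summed cadherins (*Cdh1* plus *Cdh3*) in WT and 0.0417 ± 0.00082 in KO libraries, with each KO library higher. For these last 2 ratios the exact two-sided permutation test gave p = 0.1, which is 0.25 after adjustment over the 5 ratios. Their size carries the uncertainty in the levels of *Ctnnd1* and *Tjp1* from overlapping genes, and they are ratios of RNA, not of protein.

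The ratio of *Ctnna1* to the summed cadherins was 0.380 ± 0.015 in WT and 0.353 ± 0.0093 in KO libraries, and that of *Cldn4* to *Cldn1* was 0.254 ± 0.049 in WT and 0.368 ± 0.075 in KO libraries. In both, 1 library overlapped the other group (exact two-sided permutation test, p = 0.2 for each, adjusted p = 0.25).

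The claudin RNA of these cells was mostly *Cldn1*. Of the summed CPM per kb of 17 claudin genes, *Cldn1* made up 60.8 ± 1.93% in WT and 62.3 ± 3.31% in KO libraries (SD, n = 3). *Cldn4* made up 12.7, 17.7 and 15.8% in WT and 25.9, 23.9 and 18.6% in KO libraries, so that each KO share exceeded each WT share. *Cldn8*, a claudin known from kidney and other tight epithelia, made up 7.19, 7.50 and 8.06% in WT and 2.95, 4.01 and 2.63% in KO libraries, and the groups were far apart. The summed level itself was 63.9, 83.2 and 67.1 CPM per kb in WT and 106, 85.4 and 86.5 CPM per kb in KO libraries. *Cldn5*, the endothelial claudin, had 0 counts in each library.

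**Figure D4:**
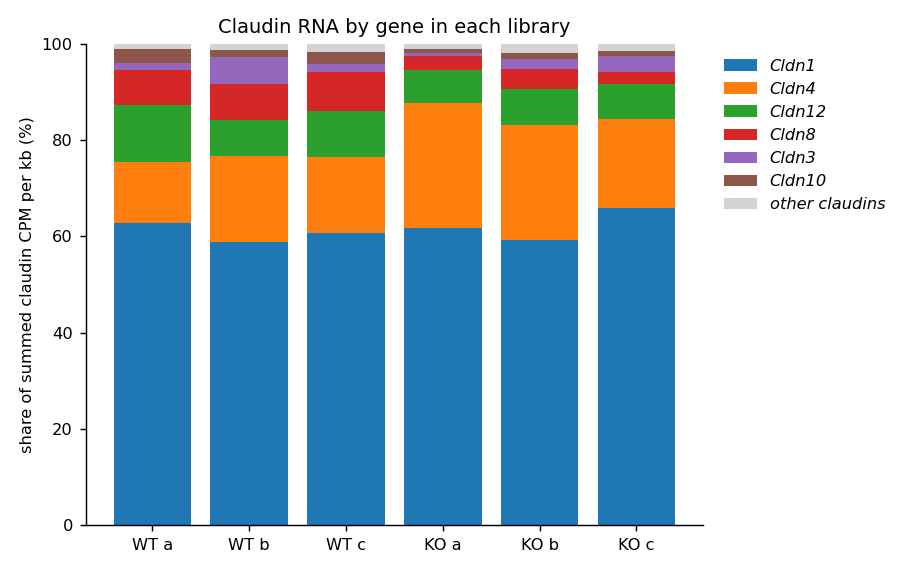
Share of each claudin gene in the summed claudin CPM per kb, with 1 bar per library. *Cldn1* fills 58.9 to 65.8% of each bar, the *Cldn4* share is larger and the *Cldn8* share smaller in every KO library than in any WT library.

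The other genes of both junction types were examined by lists of 77 genes, of which 68 were tested. Of these, 1 passed the adjusted p of 0.05 and was higher in KO (0.461% of all genes tested), and 0 passed and were lower. At an unadjusted p below 0.05, 12 were higher and 9 lower (5.58% and 5.97% of all genes tested). The groups were separate in 14 that were higher and 7 that were lower in KO (8.03% and 8.23% of all genes tested). The median log2 fold change of the 57 genes with more than 3 counts in a library of each group was 0.02, against 0.00 over all genes tested.

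The gene that passed was *Pvrl4* (*Nectin4*), which encodes an adhesion molecule of adherens junctions that is linked to actin by afadin. It stood at 66.4, 78.5 and 79.2 CPM in WT and rose to 114, 99.3 and 116 CPM in KO libraries (a log2 difference of 0.56 with standard error 0.10 and adjusted p = 0.0389). The call was lost in limma-voom (adjusted p = 0.111), after filterByExpr (0.118), and without WT c (0.353), KO a (0.302) or KO c (0.176), at log2 fold changes from 0.49 to 0.64 over all alternatives. Of the 6 nectin and afadin genes, 3 were separate and higher and 1 was separate and lower in KO, beside 8.03% and 8.23% of all genes tested. The lower one was *Mllt4*, encoding afadin and the most abundant of them, at 1317 ± 154 CPM in WT and 1087 ± 122 CPM in KO (SD, n = 3; adjusted p = 0.403). *Pvrl3*, named after its values were seen, stood at 3.79 ± 1.21 and 8.19 ± 2.49 CPM (SD, n = 3; adjusted p = 0.0964).

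Of the 8 other cadherin and catenin genes tested, 0 passed, and 2 (*Ctnnb1* and *Jup*) were separate and higher in KO and 0 separate and lower (8.03% and 8.23% of all genes tested). *Ctnnb1*, encoding β-catenin, was the most abundant at 324 CPM per kb, and its log2 fold change was 0.17 (interval −0.05 to 0.40, adjusted p = 0.577). *Ctnnd2*, a relative of p120-catenin, had the smallest p of this list, at a log2 fold change of −0.35 (adjusted p = 0.322). Of the 9 adaptor genes, 0 passed, with *Limd1*, encoding a LIM domain protein of adherens junctions, at −0.27 (adjusted p = 0.213) and *Camsap3*, encoding a microtubule minus-end protein, at −0.29 (adjusted p = 0.366). For both, the highest KO value lay below the lowest WT value. Of the 9 adaptor genes, 3 were separate and lower and 1 was separate and higher (8.23% and 8.03% of all genes tested).

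Of the 15 other claudin genes tested, 0 passed. The smallest p was that of *Cldn8*, at 10.8, 14.7 and 12.7 CPM in WT and 7.396, 8.07 and 5.37 CPM in KO libraries (a log2 difference of −0.88 with standard error 0.19 and adjusted p = 0.0635). *Cldn8* passed in DESeq2 (adjusted p = 0.00329) and in edgeR without WT a (0.0214). The most abundant row, listed as *Cldn25*, carries the identifier that the reference annotation names Cldnd1, a protein only distantly related to claudins, so it was left out of the claudin sum (log2 fold change 0.12, adjusted p = 0.681).

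Of the tight junction plaque genes, 0 of 12 passed. *Ybx3*, encoding a ZO-1-binding transcription factor and the most abundant of the list per kb, was at 0.10 (adjusted p = 0.681). Among 9 other membrane genes 0 passed, with *Cxadr*, the coxsackie and adenovirus receptor, at 0.06 (adjusted p = 0.872, reversed to −0.10 without KO a) and *Marveld2*, encoding tricellulin, at 0.31 (adjusted p = 0.401). Among 9 polarity complex genes 0 passed, with *Pard6g* at 0.11 (adjusted p = 0.681) and *Pard6b* at 0.55 (adjusted p = 0.204).

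Transcription factors and splicing factors that act on cadherin and claudin genes were read as a further list. Of 15 tested, 0 passed, and 4 were separate and higher and 2 separate and lower in KO (8.03% and 8.23% of all genes tested). *Grhl1*, a grainyhead factor of epidermal differentiation, had the smallest p, at 84.0 ± 13.0 CPM in WT and 113 ± 7.95 CPM in KO (SD, n = 3; log2 fold change 0.43, adjusted p = 0.137). *Klf4*, the most abundant, varied widely in WT, at 908 ± 328 CPM against 950 ± 126 CPM in KO (SD, n = 3; adjusted p = 0.923), and its log2 fold change of 0.06 turned to −0.15 without WT b and −0.02 without KO b. The median log2 fold change of the 14 genes with more than 3 counts in a library of each group was 0.40, beside 0.00 over all genes tested. It includes genes near the floor: *Snai1* had 2 to 7 counts per library, *Zeb1* 3 to 12 and *Zeb2* 1 to 8. The 2 separate and lower genes were *Snai2* (log2 fold change −0.30, adjusted p = 0.234) and *Grhl2* (−0.11, adjusted p = 0.678).

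Genes of desmosomes, the junctions that anchor keratin filaments, gave 0 of 13 calls and a median log2 fold change of 0.15, the value of the 9 adherens and tight junction genes being 0.15 as well. *Perp*, encoding a desmosomal membrane protein, was the most abundant at 1588 CPM per kb (log2 fold change 0.05, adjusted p = 0.873, and −0.02 without WT a). *Dsg1b*, encoding a desmoglein of the upper layers, had the smallest p, at 57.3 ± 10.4 CPM in WT and 87.2 ± 9.75 CPM in KO (SD, n = 3; adjusted p = 0.0654), and passed in DESeq2 (0.00608).

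**Figure D5:**
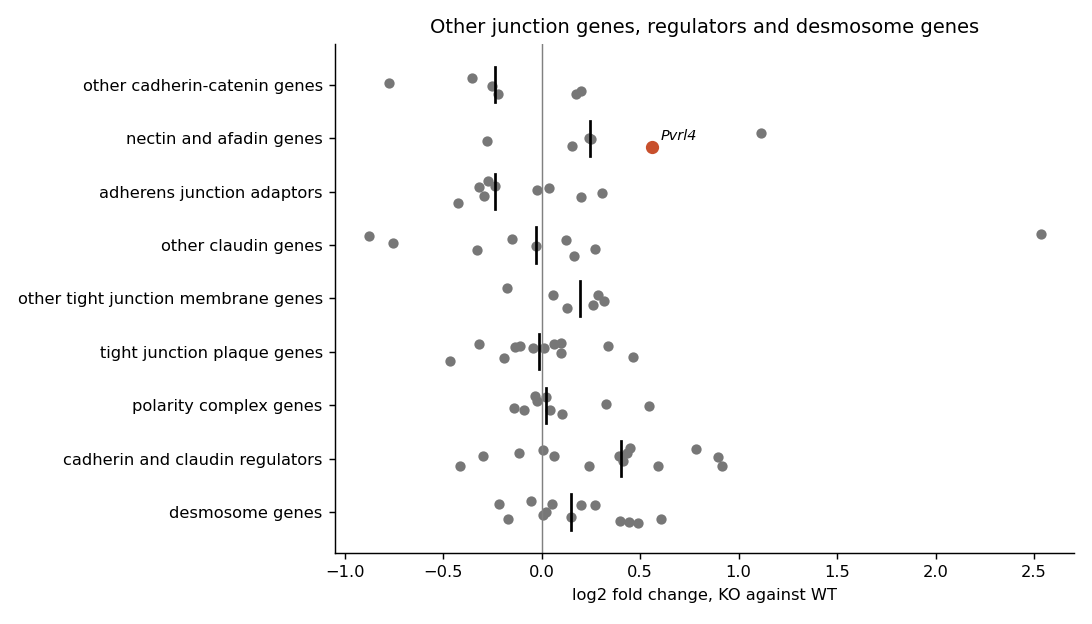
Log2 fold change of KO against WT for each gene of 9 lists with more than 3 counts in a library of each group. Each point is a gene, black lines are medians, and the orange point is *Pvrl4*, the only gene of these lists with an adjusted p below 0.05 in edgeR. Medians range from −0.24 to 0.40.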

How the data were processed

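GFP-positive epidermal keratinocytes of 6 mice were sorted by FACS. From poly(A) RNA of each mouse the authors prepared 1 stranded library, read from a single end. Per the submitters' processing notes and methods, reads were aligned with TopHat 2.1.0 and Bowtie 1.1 to GRCm38, and unique alignments were summed per Ensembl gene, taking strand into account. The deposited values are raw counts per gene, neither normalized nor pooled. No library was a copy of another: chi-square divided by its degrees of freedom was 10.1 or more for each pair of 1 genotype.

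Genes with a count above 0 in any library (21681) were tested in R 4.3.3 with edgeR 4.0.16 (TMM, glmQLFit, glmQLFTest), and adjusted p-values (Benjamini-Hochberg) are over all of them. Standard errors and 95% intervals were derived from the quasi-F statistic. Alternatives were DESeq2 1.42.0, limma-voom (limma 3.58.1), library size only, filterByExpr and each library left out. The code was tested on simulated data. Levels per kb used exon unions of GENCODE M21 (GRCm38), matched by Ensembl identifier for 22049 of 22295 genes. At this depth 3 counts equal 0.127 to 0.146 CPM, which covers counting error only. Genes named were the members, *Itga3*, the most abundant gene of each marker list, those with the highest level, the smallest p or an adjusted p below 0.05 in each list, and the 5 most like *Cdh1* (mean log2 CPM above 4). The members and lists were chosen with earlier results of these data known. Other genes were named after their values were seen. A result that the rule for named genes would have added is not reported here.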

Additional observations from a re-analysis of the deposited data

How the results depend on the processing

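No paired analysis was possible because the columns of the count table carry no replicate numbers of the sample labels. Over all genes, 146 passed in edgeR, 546 in DESeq2, 24 in limma-voom and 15 after filterByExpr, and 5 (without WT c) to 521 (without WT a) with a library left out (10 without KO a, 30 without KO c). Of the 9 junction genes 0 passed, except *Cldn4* in DESeq2 and without WT b (1 each, log2 fold change 0.94 and 1.19), so 0 to 1 with a library left out. Of the 68 other junction genes 1 passed in edgeR, 4 in DESeq2, 0 in limma-voom, 0 after filterByExpr, and 0 to 4 with a library left out (4 without WT a, 2 without KO b, and 0 without WT c, KO a or KO c). The cause of these moves was not tested.

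With a library left out, log2 fold changes ranged from 0.08 to 0.13 for *Cdh1*, 0.03 to 0.14 for *Cdh3*, 0.14 to 0.30 for *Ctnnd1*, 0.10 to 0.19 for *Tjp1*, 0.41 to 0.55 for *Ocln*, 0.31 to 0.52 for *Cldn1*, 0.71 to 1.19 for *Cldn4* and 0.05 to 0.22 for *F11r*. That of *Ctnna1* ranged from −0.061 to 0.032 and changed sign without WT a (0.032), WT c (0.0073) or KO a (0.0067). For log2 ratios (KO minus WT) the ranges were −0.096 to 0.034 for *Cdh3* to *Cdh1*, with a changed sign without WT a (0.034) or KO c (0.010), 0.38 to 0.71 for *Cldn4* to *Cldn1*, −0.14 to −0.08 for *Ctnna1* and 0.07 to 0.19 for *Ctnnd1* to cadherins, and −0.43 to −0.24 for *Tjp1* to *Ocln*. *Cxadr* (−0.10 without KO a, to 0.15), *Klf4* (−0.15 without WT b and −0.020 without KO b, to 0.39) and *Perp* (−0.021 without WT a, to 0.14) also changed sign. With the longest transcript as length, levels were 147 for *Ctnna1*, 10.7 for *Ctnnd1* and 16.0 CPM per kb for *Tjp1*. *Ocln*, with the fewest counts, is the member most limited by depth.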

Other observations

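Across the 6 libraries, log2 CPM of *Cldn1*, *Cldn4* and *Ocln* varied together (Pearson r from 0.906 to 0.932, n = 6), as a description of libraries that share the 2 genotypes. *F11r* followed *Cldn1* (r = 0.872) and *Cldn4* (r = 0.832), while *Ctnna1* ran against *Cldn1* (r = −0.556). Of 8574 genes with a mean log2 CPM above 4, those most like *Cdh1* were *Zmiz2* (r = 0.998), *Prkch* (r = 0.990), *H2afy2* (r = 0.988), *Pdlim1* (r = 0.986) and *Fkbp2* (r = 0.985), each over 6 libraries. Picked as the highest of so many correlations over so few libraries, these values are a description only. Among the 9 junction genes, *Ocln* (r = 0.813), whose level was too low for that comparison, and *Ctnnd1* (r = 0.749) came nearest to *Cdh1*, and *Cdh3*, its neighbour on the chromosome, had r = 0.149.

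*Cldn10*, named after its values were seen, stood at 4.17 ± 0.85 CPM in WT and at 2.47 ± 0.23 CPM in KO (SD, n = 3; adjusted p = 0.189). *Grhl3* and *Ovol1*, regulators of epidermal differentiation named in the same way, had log2 fold changes of 0.89 (adjusted p = 0.144) and 0.78 (adjusted p = 0.180), and KO a held the highest value of both, at 63.5 and 128 CPM. All 5 tight junction members (*Cldn4*, *Cldn1*, *Ocln*, *F11r* and *Tjp1*) were also highest in KO a. Of the 6 libraries, KO a held the lowest level of the bulge markers *Cd34* (399 CPM), *Lgr5* (362 CPM), *Krt15* (9616 CPM) and *Lhx2* (285 CPM). The lowest *Sox9* was in WT c (403 CPM). A link between these values was not tested.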
